A study of Mus musculus with 2 samples.

Results

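Succinate dehydrogenase, or complex II of the respiratory chain, was examined through its 4 subunit genes (Sdha, Sdhb, Sdhc and Sdhd) and 4 assembly factor genes (Sdhaf1, Sdhaf2, Sdhaf3 and Sdhaf4) in a mouse glioblastoma stem cell line with and without an shRNA against Gli2. The 8 genes were chosen by name, for their place in complex II, at a time when the differences between these arrays were already known, so their differences are given as a description. All 11 probes whose RefSeq accession belongs to 1 of these genes are reported, out of 56595 probes and 23784 named genes on the array, and no member was left out. The cells were neurosphere cultures from Sleeping Beauty transposon-induced mouse brain tumours, kept in serum-free Neurobasal medium with B27, N2, EGF and bFGF. The control group carried a lentiviral non-target shRNA and the other group a lentiviral Gli2 shRNA, both in stably transduced cells of this line. Which hairpin sequences were used is not given in the sources used here. Each group was 1 Cy3-labelled Agilent array, so no difference has a replicate check and no test was possible. The arrays read bulk RNA, in which fewer cells that express a gene and less RNA per cell cannot be told apart.

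Complex II sits in the inner mitochondrial membrane and belongs to both the tricarboxylic acid cycle and the respiratory chain. It oxidises succinate to fumarate and passes the electrons to ubiquinone. All of its subunits are encoded in the nucleus, unlike those of the other electron transfer complexes that pump protons. Inherited loss of subunits or of certain assembly factors is known in human paraganglioma and phaeochromocytoma, and loss of function raises succinate, which inhibits oxygen-sensing and chromatin-modifying dioxygenases.

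Gli2, the target of the shRNA, is a zinc finger transcription factor of the Hedgehog pathway. Its 1 probe gave a processed signal (background-subtracted spot intensity) of 98.1 (control) and 57.9 (Gli2 shRNA). After scaling, which subtracts the 75th percentile of log2 signals of the same array, the log2 difference (Gli2 shRNA minus control) was -1.04 ± 0.22, or 48.7% of the control level. The error beside each difference is the scanner software's own spot error and covers neither culture nor hybridisation. With median scaling, cyclic loess and normexp, the Gli2 difference was -0.90, -0.98 and -0.64, short of 2-fold.

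Markers of the labelled cell type were present, with 9 of 10 neural and glioma stem cell markers well above background on both arrays. The exception, Prom1, passed that level with Gli2 shRNA alone. Markers of other cell types were measured on both arrays for 9 of 10 neuron, 5 of 7 astrocyte, 5 of 6 oligodendrocyte, 2 of 6 microglia and macrophage and 2 of 5 endothelial genes. Of the microglia and macrophage genes, Itgam (4694 control, 5413 Gli2 shRNA) and Csf1r (390 and 432) were measured on both arrays. Pecam1 and Kdr were the endothelial genes measured on both. Aif1, Tmem119 and the astrocyte gene Gfap passed with control shRNA alone. Cx3cr1 and Ptprc, and Cdh5, Cldn5 and Tek, were not well above background on either array. The same held for Stmn2 (neuron), Gja1 (astrocyte) and Mobp (oligodendrocyte). The summed signal of the stem cell markers was 173441 (control) and 223852 (Gli2 shRNA), and that of the neuron markers 24097 and 22956. The sums were 7188 and 7568 for astrocyte, 742 and 912 for oligodendrocyte, 5129 and 5877 for microglia and macrophage, and 123 and 121 for endothelial markers. The part of these markers in the results below was not tested.

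Sdhd, Sdha and Sdhaf2 each lie head to head with a neighbouring gene, with their starts close together on opposite strands, and the stretch between the starts is shown because the Sdhd result is later read beside the gene that shares it. The sequences were taken from the RefSeq promoter table of build GRCm38.p6, minus strand, in the direction of the member. Capitals mark CCGGAAG or its reverse complement, the core letters of the GABPA/ETS motif.
Sdhd to Timm8b (chr9:50603850-50603900): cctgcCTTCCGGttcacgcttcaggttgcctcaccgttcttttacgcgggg
Sdha to Ccdc127 (chr13:74350241-74350316): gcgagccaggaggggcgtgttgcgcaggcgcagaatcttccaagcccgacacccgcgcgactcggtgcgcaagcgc
Sdhaf2 to Cpsf7 (chr19:10525210-10525222): cgctacttccgcc

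These stretches are 51, 76 and 13 bases long. The ETS letters begin 46 bases before the Sdhd start and end 40 bases before it. Over the 250 bases before the start, 7 of the 8 members had a sequence in the table, and CCGGAAG was present on either strand for Sdhd, Sdhaf2 and Sdhaf3, against 8.98% of 21263 promoter sequences of protein-coding genes. The Sp1 letters GGGCGG were present for 5 of the 7, all except Sdha and Sdhd, against 42.6%. The letters searched for NRF1 (GCGCATGCG), YY1 (AAGATGGC) and GLI (GACCACCCA), on both strands, were present in none of the 7, against 1.93%, 1.5% and 0.16% of promoters. None of the searched strings contains another. A member was counted if any of its promoter sequences matched, while the shares count single sequences. A match describes letters and not binding, and a missing match says only that these letters are not in this window. For Sdhd, Sdha and Sdhaf2 most of the 250 bases before the start shown lie inside the neighbouring gene. The Sdhaf2 stretch of 13 bases holds neither the ETS nor the Sp1 letters.

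The subunits split into Sdhd, which was far lower in the Gli2 shRNA array, and Sdha, Sdhb and Sdhc, which stayed close to their control level. Sdhd encodes the small membrane anchor that, with Sdhc, holds the enzyme in the membrane and forms the ubiquinone site. Its probe (RefSeq NM_025848, chromosome 9) read 14449 with control shRNA and 4452 with Gli2 shRNA, or 30.8% before any scaling. On the scaled log2 scale the level went from 5.46 to 3.48, a difference of -1.98 ± 0.20 and a 3.93-fold lower level. The median pixel intensity of the spot, which no background step has touched, was 13912 with control shRNA and 4309 with Gli2 shRNA.

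Sdhc, the large membrane anchor and the direct partner of Sdhd in the membrane, was higher in raw signal but near its control level after scaling. Its probe (NM_025321, chromosome 1) read 4890 (control) and 6209 (Gli2 shRNA), a scaled difference of 0.07 ± 0.20. Sdha, the flavoprotein that carries FAD and oxidises succinate, was measured by 2 probes (NM_023281, chromosome 13). The brighter read 8543 and 11273 and the other 1013 and 1336, with scaled differences of 0.12 ± 0.20 on each. Sdhb, the iron-sulfur subunit that passes electrons on to ubiquinone, also had 2 probes (NM_023374, chromosome 4). The brighter read 31866 and 36742 and the other 6940 and 7962, with scaled differences of -0.07 ± 0.20 and -0.08 ± 0.20. The 4 differences of Sdha and Sdhb probes and that of Sdhc were smaller than the software error, and the sign of Sdhb turned with the scaling (0.06 with median scaling). On the same scale the Sdhd difference minus that of Sdha was -2.10, minus that of Sdhc -2.04 and minus that of Sdhb -1.90.

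**Figure D1:**
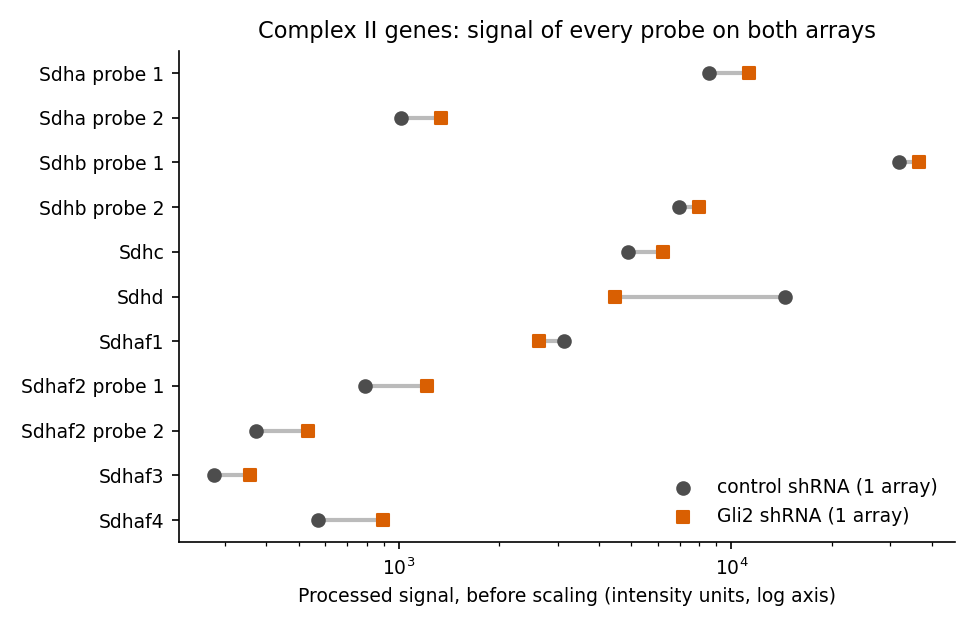
Processed signal of every probe of the 8 genes (x, intensity units before scaling, log axis) with control shRNA (grey circles) or Gli2 shRNA (orange squares), 1 array each. Sdhd was lower (14449 and 4452) and Sdhaf1 was lower by less (3140 and 2633), while the probes of the other 6 genes were higher in the Gli2 shRNA array before scaling. The 75th percentile of all signals was also higher in that array (329 control, 399 Gli2 shRNA).

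Assembly factors differed by less than 1.5-fold, with Sdhaf1 below its control level and Sdhaf2 and Sdhaf4 above theirs. Sdhaf1, an LYR motif protein that helps iron-sulfur clusters enter Sdhb, read 3140 (control) and 2633 (Gli2 shRNA). It lies on chromosome 7 (NM_001033140). Its scaled difference was -0.53 ± 0.20, a 1.45-fold lower level, and lay between -0.53 and -0.40 in the settings tried. Sdhaf3, the other LYR motif factor that acts on Sdhb, was near its control level. It read 279 and 357 (NM_001077713, chromosome 6), with a difference of 0.08 ± 0.21.

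Both factors that act on Sdha lay above 0. Sdhaf2, which is needed to attach FAD to Sdha, read 789 and 1215 on its brighter probe and 373 and 533 on the other (NM_025333, chromosome 19), with differences of 0.35 ± 0.20 and 0.24 ± 0.20. Sdhaf4, which binds flavinylated Sdha and helps it join Sdhb, read 572 and 895 (NM_026503, chromosome 1), a difference of 0.37 ± 0.20. For the 3 members with 2 probes the probes differed from each other by at most 0.11. Both probes of each had the same sign, although those of Sdhb took opposite signs near 0 with cyclic loess. Sdhc, Sdhd, Sdhaf1, Sdhaf3 and Sdhaf4 rest on 1 probe each.

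All 8 members were well above background on both arrays, and 1 of them, Sdhd, was lower by 2-fold or more. Over all genes measured on both arrays, 260 of 14563 (1.79%) were lower by that much and 268 (1.84%) higher, none of the latter a member. Of all such calls 50.8% were higher, and 68.6% with median scaling. Sdhd was also the 1 member past 1.5-fold in either direction, which 12.5% of all genes passed. The median difference of the 8 members was 0.07 and that of all genes was 0.00, with 5 members above 0 and 3 below. Since the genes were picked with these differences known, the shares are given beside the count and nothing is read from them.

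Few genes as bright as Sdhd in the control array differed as much. Sdhd ranked 20th from the lowest of 14563 genes, where Sdhaf1 ranked 1119th. Among 1280 genes whose control signal lay within 2-fold of that of Sdhd, 8 genes (0.625%) were lower by 2-fold or more and 1 was higher. None was lower than Sdhd. The band was set after the Sdhd value was seen and on the control signal alone, which favours genes lower in the other array. The next lowest in that band was Sh3pxd2a, a podosome scaffold protein, at -1.61. The SD of the log2 difference over the band was 0.25.

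**Figure D2:**
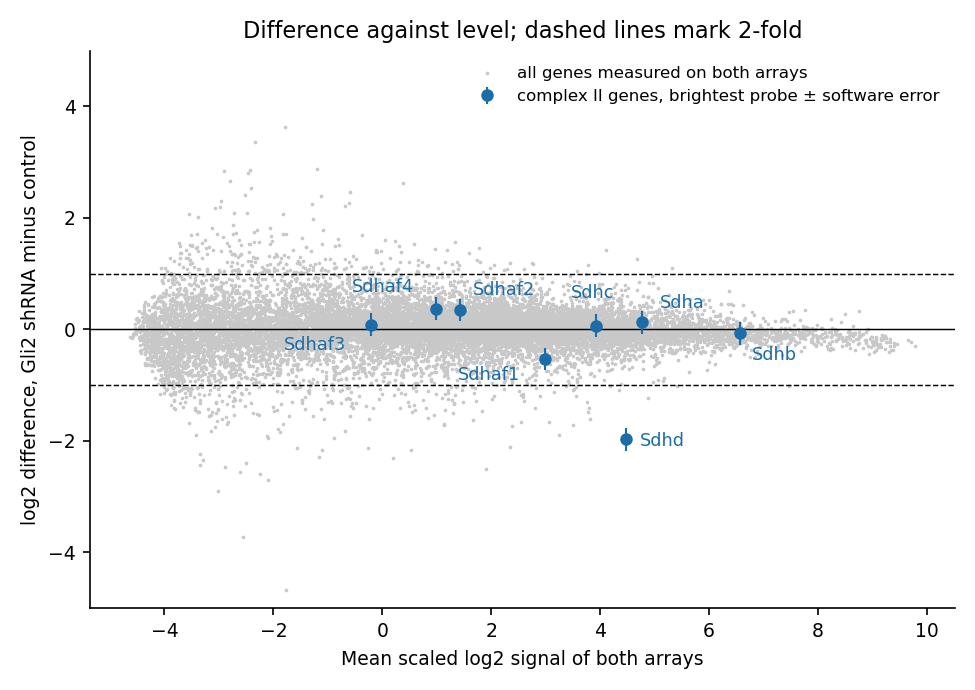
Log2 difference, Gli2 shRNA minus control (y), against the mean scaled log2 signal of both arrays (x) for the 14563 genes measured on both (grey) and the 8 complex II genes (blue, brightest probe, bars are the software error). Sdhd at -1.98 lies past the dashed 2-fold line, and the other 7 lie between -0.53 and 0.37.

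The Sdhd spot itself was inspected, since a single spot per array carries the value. It was neither saturated nor marked as non-uniform or as an outlier on either array. Its local background was marked as an outlier on both arrays, at a median of 30.0 (control) and 24.0 (Gli2 shRNA), against 41.0 and 32.0 over all spots of those arrays. Such a mark was also carried by 9.74% and 8.27% of non-control spots. Leaving out all of them removes Sdhd and Sdhaf3 from the comparison, and then none of the 6 remaining members was past 2-fold.

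The 66 other measured spots within 6 rows and 6 columns of the Sdhd spot had a median difference of -0.06, against -0.03 over all 33581 measured spots. Of the 66 spots, 4 (6.06%) were lower by 2-fold or more and none higher, against 1.68% lower over all measured spots. The control signals of those 4 lay between 61.4 and 227, and the part of the spot's place on the array in the Sdhd value was not tested. Among probes printed 10 times with signals of 4000 to 16000, the highest SD between spots of 1 array was 0.09 on the log2 scale, over 3 such probes (control) and 4 (Gli2 shRNA). Of 1052 genes with at least 2 probes of control signal 1000 or more, both probes agreed within 0.28 in 95% of genes, and 2 genes differed by over 1. Among these, 7 genes were lower by 2-fold or more on the brightest probe, and their second probe lay below 0 in all 7 and past 2-fold in 4. Sdhd has no second probe with a RefSeq match, so a loss of the whole transcript and a change in the stretch under the probe cannot be told apart.

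Timm8b, which encodes a small chaperone of mitochondrial protein import, starts 51 bases from Sdhd on the other strand, across the first stretch shown above. Its probe read 19917 (control) and 24706 (Gli2 shRNA), a difference of 0.03 ± 0.20, so it did not share the lower level of Sdhd. Sdha and Ccdc127, which start 76 bases apart, differed by 0.12 and 0.36, and Sdhaf2 and Cpsf7, a cleavage factor subunit of messenger RNA 3′ ends, by 0.35 and 0.00. Of 247 such head-to-head pairs with starts at most 100 bases apart and both genes measured, the median distance between the differences of a pair was 0.22, and 95% lay within 0.87. The Sdhd and Timm8b pair had a distance of 2.01, the widest of the 247. Sdhd was picked with its difference known, and no gene in these pairs had a larger one. The rank therefore adds nothing to the Sdhd value. In 8 pairs at least 1 gene was past 2-fold, and in none of these were both past it in the same direction. Over all genes 1.79% were lower and 1.84% higher by that much, and nothing is read from this count.

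**Figure D3:**
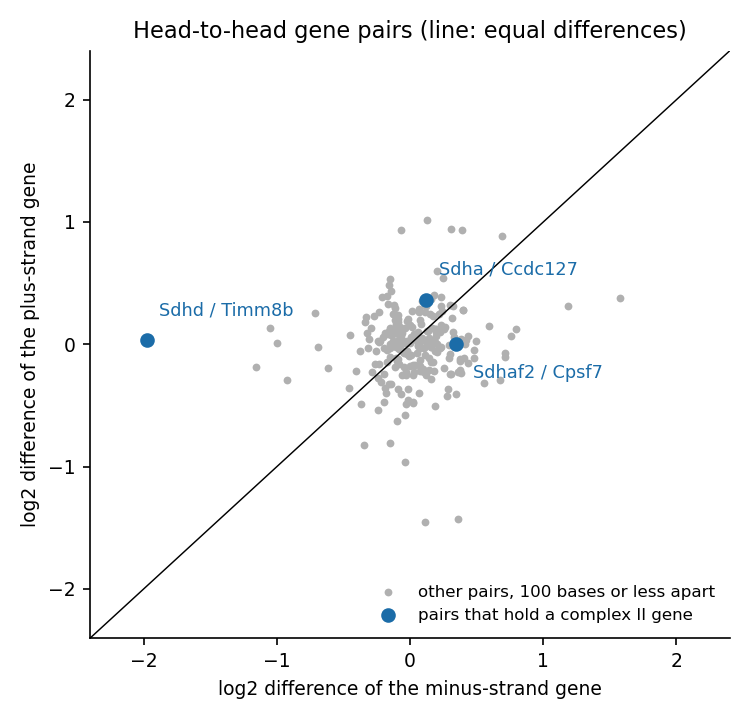
Log2 difference, Gli2 shRNA minus control, of the minus-strand gene (x) and the plus-strand gene (y) of 247 head-to-head pairs with starts at most 100 bases apart. Blue points are the pairs that hold a complex II gene, and the pair of Sdhd (-1.98) and Timm8b (0.03) lies farthest from the line of equal differences.

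Genes farther along chromosome 9 differed by less than 2-fold, some below and some above their control level. Beyond Timm8b, Nkapd1 differed by 0.10 ± 0.20, Pih1d2 by 0.40 ± 0.20 and Dlat, the E2 subunit of pyruvate dehydrogenase, by -0.18 ± 0.20. On the other side, the cytokine gene Il18 differed by -0.13 ± 0.20 and Pts, an enzyme of tetrahydrobiopterin synthesis, by 0.62 ± 0.20, past 1.5-fold and higher. No gene named here from the Sdhd neighbourhood was past 2-fold besides Sdhd. Among the direct protein-coding neighbours of the other members, Padi2, a peptidylarginine deiminase beside Sdhb, was higher by 1.18 ± 0.21 on the log2 scale (92.7 and 255), short of 2-fold with normexp (0.78).

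Complex II was set beside the nuclear-encoded subunits of the other 4 complexes of oxidative phosphorylation, from lists written by name. Of their 74 genes 73 were measured on both arrays and none was past 2-fold, in either direction. Over all genes 1.79% were lower and 1.84% higher by that much, and 0.625% were lower among genes about as bright as Sdhd. So few pass that nothing is read from this count, or from the like counts of the lists below. None of the 73 was as low as Sdhd. Cox6b1, a complex IV subunit of the intermembrane space side, was the lowest at -0.81 ± 0.20 (5260 and 3638). By complex, 23 of 36 complex I subunits lay below 0 with a median of -0.07, from Ndufc2 at -0.44 to Ndufa10 at 0.15.

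All 9 complex III subunits and all 13 measured complex IV subunits lay below 0, but with median scaling 6 of 9 and 9 of 13 did. Their medians were -0.26 and -0.19, and -0.12 and -0.05 with median scaling. In complex III the lowest was the core protein gene Uqcrc1 at -0.42 and the highest the Rieske iron-sulfur protein gene Uqcrfs1 at -0.06, and in complex IV the highest was Cox4i2 at -0.04. Of 15 ATP synthase subunits 14 lay below 0 (median -0.09), from Atp5g3 at -0.32 to Atp5pb at 0.06, whereas with median scaling 14 lay above 0. The complex I median turned to 0.07 with median scaling as well.

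Enzymes around succinate in the tricarboxylic acid cycle were near their control level. None of 14 was past 2-fold, the median was 0.03, and the range ran from Idh3a at -0.32 to Suclg2 at 0.30. Succinyl-CoA ligase, which makes succinate, had Suclg1 at -0.19, Suclg2 at 0.30 and Sucla2 at 0.26, each ± 0.20. Fh1, the fumarase that takes up the product of complex II, read 17642 and 18469, a difference of -0.21 ± 0.20. Of the genes for other succinate sources and carriers, Aldh5a1, which makes succinate from the GABA shunt, differed by 0.56 ± 0.20 and Abat by -0.31 ± 0.20. Sucnr1, the cell surface receptor for succinate, was near background (23.5 and 14.2) and measured on the control array alone. Set against the lowest signal well above background with Gli2 shRNA (15.2), it was 1.88-fold lower after scaling. The software error of its log2 difference was 0.46, so 1.88-fold is not a firm lower bound.

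Other enzymes that feed electrons into the ubiquinone pool held the 2 members of the related lists that were past 2-fold and higher. Sqor, which oxidises sulfide, read 363 and 893, a difference of 1.02 ± 0.20, and its second probe gave 1.08. Prodh, the proline dehydrogenase, read 59.9 and 152, a difference of 1.07 ± 0.22. With normexp they gave 0.92 and 0.59, and with cyclic loess Sqor gave 0.998, just short of 2-fold. Dhodh, which links pyrimidine synthesis to ubiquinone, was the lowest of the 7 measured on both arrays at -0.21. Chdh, also on this list, was near background (14.4 control, 6.15 Gli2 shRNA) and measured on the control array alone. Set against the lowest signal well above background with Gli2 shRNA (15.2), it was 1.15-fold lower after scaling. The software error of its log2 difference was 0.81, so that is not a firm lower bound. Ubiquinone synthesis genes had none of 13 past 2-fold, from Coq10a at -0.30 to Coq2 at 0.44.

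The cofactor supply of complex II was within 2-fold. Of 17 genes of mitochondrial iron-sulfur cluster synthesis 11 lay above 0, from the co-chaperone gene Hscb at -0.34 to the cysteine desulfurase gene Nfs1 at 0.37. Among 5 genes of riboflavin and FAD supply, Flad1, the FAD synthase, was highest at 0.05 and the riboflavin transporter gene Slc52a3 lowest at -0.34 ± 0.38. Of 8 other LYR motif genes, Lyrm7 was lowest at -0.48 on its brightest probe (-0.20 on the second) and Lyrm4 highest at 0.26, against -0.53 for Sdhaf1. Of 43 assembly factors of other complexes, 26 lay below 0, from Atpaf1 at -0.54 to Cox19 at 0.52.

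Pyruvate entry, oxygen sensing and regulators of mitochondrial genes completed the related lists. In the pyruvate list 12 of 13 genes were measured on both arrays, from Pdhb at -0.27 to Pcx at 0.56. The prolyl hydroxylases that succinate can inhibit, Egln1, Egln2 and Egln3, differed by 0.01 (Egln1), -0.08 (Egln2) and less than 0.01 (Egln3), and within their list Hif1a was lowest at -0.37 and Epas1 highest at 0.68. Among 14 regulators, 10 lay above 0, with Esrrb highest at 0.70. Ppargc1a, which coactivates nuclear genes of mitochondrial energy supply, read 325 and 80.0, a difference of -2.30 ± 0.22. Among related genes measured on both arrays it was the 1 lower by 2-fold or more. Its dimmer probe gave -2.08 but was well above background in the control alone, and with normexp the brighter gave -1.60. Across the 212 genes of these lists measured on both arrays, Ppargc1a alone lay below Sdhd, and the median was -0.06.

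**Figure D4:**
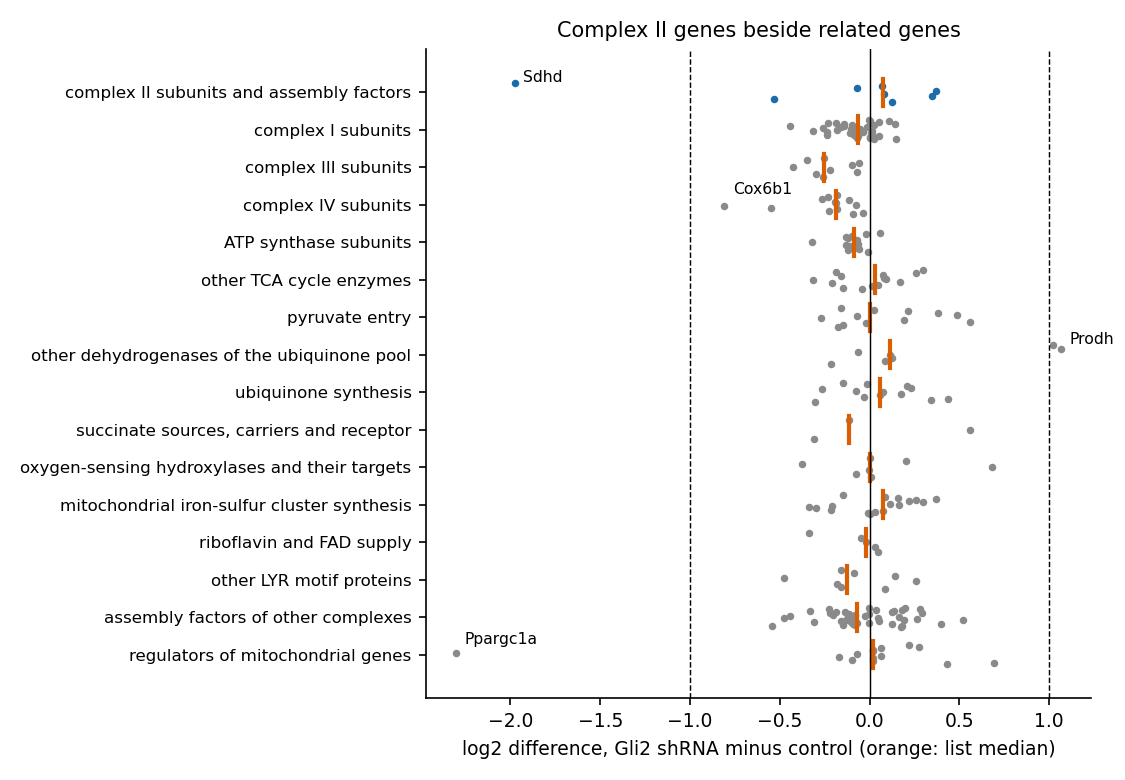
Log2 difference, Gli2 shRNA minus control, of the complex II genes (blue) and of related genes (grey) measured on both arrays, 1 point per gene, with the median of each list in orange and 2-fold as dashed lines. Sdhd (-1.98) and Ppargc1a (-2.30) are the points lower by 2-fold or more.

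Of the alternative settings, normexp, quantile normalization and cyclic loess could change both the Sdhd value and its place among the members. They gave -1.92, -1.94 and -1.95, and Sdhd was the lowest member in each. Median scaling and the authors' deposited table, which shift every gene alike, gave -1.84 and -1.98, and the other settings that kept the spot leave a bright gene with 1 probe as it is. Under normexp, quantile normalization, cyclic loess and median scaling, Sdhaf1 lay below 0 and Sdha, Sdhc, Sdhaf2, Sdhaf3 and Sdhaf4 above 0. Sdhb lay within 0.1 of 0 on either side.

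**Figure D5:**
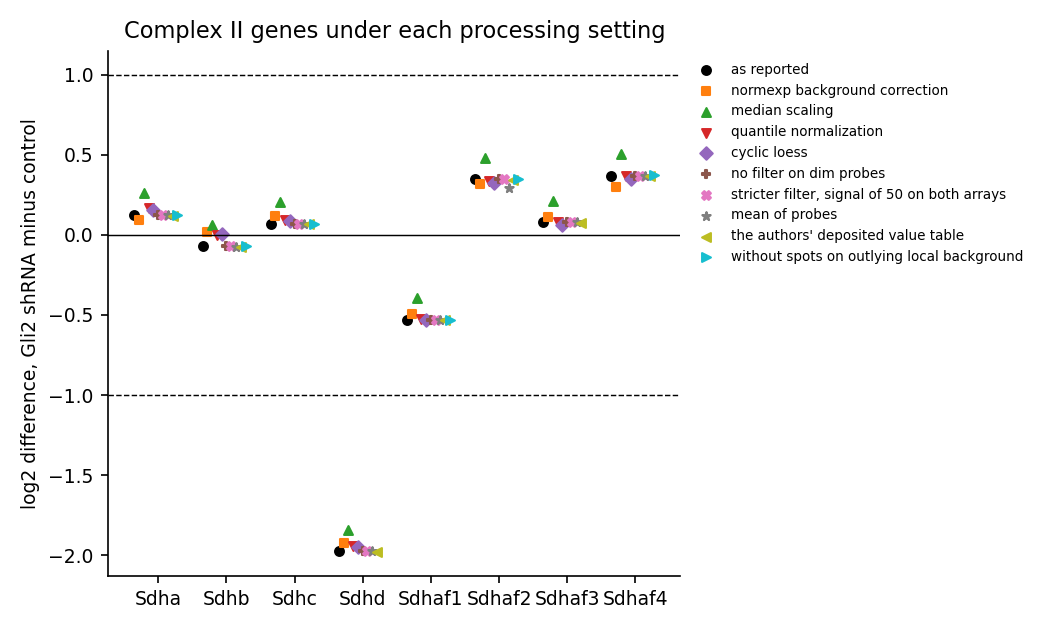
Log2 difference, Gli2 shRNA minus control (y), of each complex II gene under each processing setting (markers), with 2-fold as dashed lines. Sdhd lay between -1.98 and -1.84 where its spot was kept, and no other member reached 2-fold.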

How the data were processed

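The 2 arrays were on 1 slide and in 1 scan. Per the file headers, the deposited scanner files came from Agilent Feature Extraction 12.1.0.3 (protocol GE1_1200_Jun14, design 074809, grid build mm9) and hold processed intensity, its modelled error, median and background intensity and software flags such as the control type. The authors' deposited value table is on a log2 scale; each column was the log2 processed intensity minus a constant (8.36 and 8.64), with medians of -3.55 and -3.69, so its scale and direction are known while its centring beyond a 75th percentile of 0 is not stated.

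Control spots and spots marked non-uniform or as outliers (126 and 120) were left out, spots of a probe were averaged, and the 75th percentile of log2 signals (329 and 399) was subtracted. No spot was saturated. Probes well above background numbered 33694 and 32334. RefSeq accessions without versions named 34560 probes through the gene table of GRCm38.p6; 22035 stayed unnamed. A gene is its brightest probe. Genes were counted at 2-fold with no test, and precision is limited by the number of arrays. The counting code was run on simulated data with planted shifts past 2-fold. That run checks the code and not the error rate of the counts.

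The members and lists were chosen with earlier results of these data known. Named are all members, Gli2 and, per related list, genes past 2-fold and the highest and lowest; the genes beside the members, Sh3pxd2a and the succinate genes were named after their values were seen. Alternatives used limma 3.58.1 in R 4.3.3 (normexp with offset 50 on median signals, since the files hold no mean signals; quantile; cyclic loess) and Python 3.11.15.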

Additional observations from a re-analysis of the deposited data

How the results depend on the processing

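Sdhd was the 1 member past the size rule under 9 of the 10 alternatives tried for that count. The rule was 2-fold, except in 1 of the 9, which set it at 1.5-fold. Several of these, such as the filters on dim probes and the mean of probes, cannot change a bright gene with 1 probe. When spots on outlying local background were also left out, a setting added after the data were seen, the count was 0 of 6 members, because the Sdhd spot is among those removed. The median of the members moved by less than the software error in every alternative tried for it, from 0.07 to 0.21 (median scaling), and was 0.08 without Sdhd. The count of all genes past 2-fold, 528, was 167 with normexp, 297 with the stricter filter (a signal of 50 on both arrays), 2844 with no filter on dim probes and 1827 at 1.5-fold. With median scaling the all-gene median was 0.14. The differences of the member probes and the medians of the related lists moved by less than the software error in all 198 comparisons with an alternative. Many of these could not move by more. Median scaling and the deposited table shift every gene alike by less than that error, and the filters leave bright probes as they are. The error is also that of a single probe and not the spread of a list median. The ATP synthase median changed sign with median scaling (-0.09 and 0.05) and counted as unmoved. The count therefore does not measure how stable the values are. Gli2, Prodh, Padi2 and Ppargc1a moved by more with normexp. A fit with the slide as a block was not run, because each group has 1 array. No paired analysis was possible because each group holds 1 array and no fit was made. Dim probes such as Sucnr1 and Slc52a3 are limited by their signal over background.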
